A study of Mus musculus with 14 samples.

Results

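Uteri of Folr4-/- mice given folinic acid were compared with uteri of wild-type mice given saline, to ask whether the supplemented mutant uterus resembles the normal uterus without supplement. The comparison used the 4 arrays labelled mutant with folinic acid and the 4 arrays labelled wild type with saline, 8 of the 14 arrays of the series, and every one of the 45037 non-control probe sets of the array. The females were of C57BL/6 background by the labels, either wild type or homozygous for the Folr4 mutation. They received saline or folinic acid, the latter as 2 intraperitoneal injections of 12.5 mg/kg given 10 and 3 days before mating. Whole uterus was taken at day 3.5 of gestation in every group. The other groups were wild type with folinic acid (3 arrays) and mutant with saline (3 arrays). They entered the fit for the estimate of the spread and are shown beside the main comparison. The labels do not describe the mutant allele or say whether wild types were littermates of mutants. Genotype and injection differ together between the 2 groups compared, so their parts in any difference cannot be told apart within it.

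Folr4, now named Izumo1r, belongs to the folate receptor gene family, and its product Juno is the egg surface receptor for the sperm protein Izumo1. Folinic acid is a reduced folate that cells can use for one-carbon metabolism, the set of reactions that supplies carbon units for nucleotide synthesis and for the methionine cycle. The mouse uterus before implantation is governed by oestrogen and then progesterone, under which epithelial proliferation ends, stromal cells begin to divide and the lumen is prepared for the blastocyst.

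The deposited values are signals on a linear scale, with 1 value per probe set and array. The labels call the arrays biological replicates, and p-values measure the spread between these arrays. Some wild-type arrays share a number in their titles, replicates 2 and 3 of the saline group and replicates 1 and 2 of the folinic acid group, and the labels do not explain the number. The median signal lay between 129 and 157 on the 14 arrays. The ratio of the 3' to the 5' actin control probe set, a measure of RNA integrity, ran from 1.72 to 3.64 in the wild-type saline group and from 1.54 to 3.12 in the supplemented mutant group, with replicate 3 highest in both. Markers of uterine tissue were all well represented: 10 of 10, including Pgr, Esr1, Hoxa10, Krt8 and Myh11, had a mean signal at or above the median of all probe sets (134). None of 5 markers of the preimplantation embryo reached that level. Some markers of other tissues did: 2 of 4 with a probe set for ovary and 2 of 4 for adipocytes. For oviduct it was 1 of 4, for blood 1 of 2, for skeletal muscle 1 of 4 and for pancreas and gut 1 of 3. Because whole uterus was profiled, fewer cells of a type and less RNA per cell cannot be told apart.

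The mutated gene itself was too dim to check the labels. Its probe set read 19.0, 46.9, 52.7 and 72.4 in wild-type saline replicates 1 to 4 and 8.67, 14.8, 41.3 and 6.14 in supplemented mutant replicates 1 to 4. The other groups read 16.3, 13.5 and 54.8 (wild type with folinic acid) and 11.4, 70.2 and 7.0 (mutant with saline). The ranges overlapped in all of these groups, and the log2 difference between the supplemented mutant and wild-type saline groups was -1.68 ± 0.82 (SE, limma, n = 4 and 4, adjusted p = 0.810).

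Very few probe sets separated the supplemented mutant uterus from the wild-type saline uterus. Of 45037 probe sets, 4 passed an adjusted p of 0.05 (0.00888%), 3 of them higher (0.00666%) and 1 lower (0.00222%) in the supplemented mutant. They were a probe set of Erdr1, a probe set with no gene symbol, a dim probe set of Lrmda, and 1 that the array's annotation matches to several predicted genes. At an unadjusted p under 0.05 there were 2786 probe sets (6.19%), of which 1059 were higher (2.35%) and 1727 lower (3.83%). The 4 mutant arrays lay wholly above the 4 wild-type arrays for 568 probe sets (1.26%) and wholly below them for 1012 (2.25%). Other pairs of groups, which share arrays with this comparison or with each other, gave similarly few calls: 2 (0.00444%) for mutant with saline against wild type with folinic acid, 3 (0.00666%) for the genotypes under saline, 2 (0.00444%) for the genotypes under folinic acid, 2 (0.00444%) for folinic acid in mutants, and 0 (0.0%) for folinic acid in wild types.

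Erdr1 had the smallest p-value of all probe sets. It is listed by RefSeq (GRCm38.p6) as a transcribed pseudogene on chromosome X, and its probe set 1452406_x_at is of a type that can bind more than 1 transcript. The signals were 141, 365, 234 and 398 in wild-type saline replicates 1 to 4 and 8775, 5553, 8834 and 6066 in the supplemented mutant. Every supplemented mutant array lay far above every wild-type saline array. Erdr1 rose 27.2-fold, a log2 difference of 4.76 ± 0.31 (SE, n = 4 and 4, adjusted p = 1.98e-06). The signals were 11930, 8034 and 5956 in mutants with saline and 570, 285 and 336 in wild types with folinic acid, so the arrays split by genotype with either injection. A dimmer second probe set of Erdr1 also kept the groups apart, with a log2 difference of 1.35.

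Probe set 1439200_x_at, which has no gene symbol in the array's annotation, split the arrays in the same way. It read 30.8, 5.75, 0.756 and 2.53 in wild-type saline and 1859, 1829, 2040 and 1399 in the supplemented mutant. The saline mutants read 2469, 1785 and 1344, and wild types with folinic acid 4.10, 1.88 and 22.4. The log2 difference was 8.58 ± 0.83 (SE, adjusted p = 3.46e-04), a size that depends on the handling of near-background signals: it was 6.23 when 16 was added to every signal in place of a floor of 1. Both probe sets stayed past the threshold under every alternative in which they were tested, 21 for Erdr1 (adjusted p from 1.10e-06 to 0.00107) and 18 for 1439200_x_at (1.06e-07 to 0.0254).

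**Figure D1:**
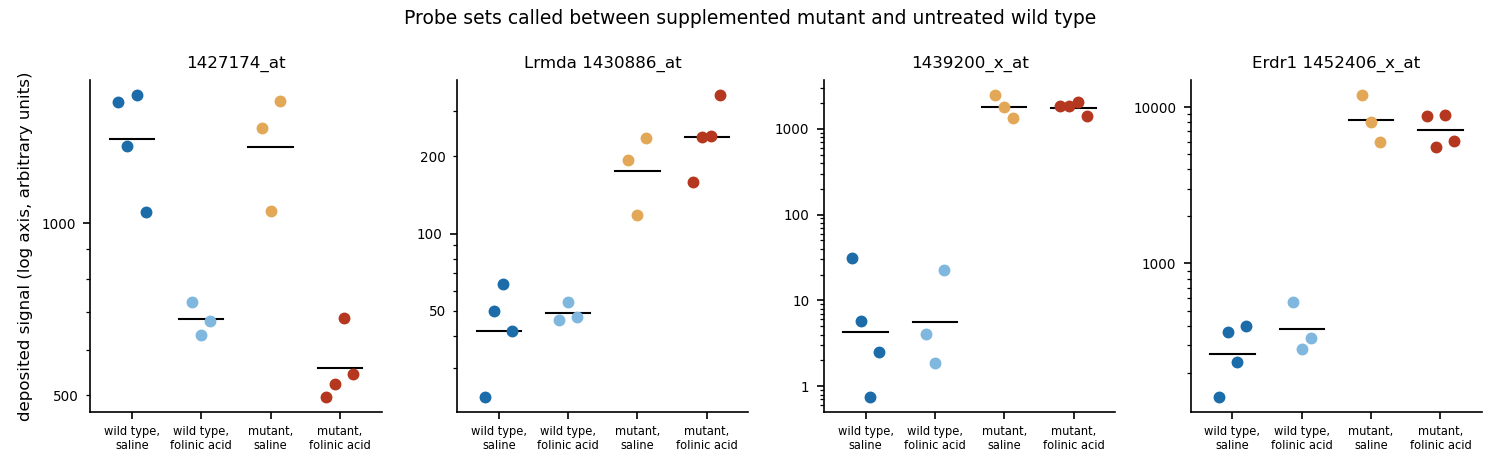
Deposited signal (log axis, arbitrary units) of the 4 probe sets that passed the test, with 1 point per array in each of the 4 groups and a bar at the geometric mean. Erdr1, 1439200_x_at and Lrmda are high in both mutant groups, while 1427174_at is low in both folinic acid groups.

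The probe set 1430886_at of Lrmda, a leucine-rich protein linked to melanocyte differentiation, rose by less and from near background. It read 23.2, 50.2, 63.6 and 41.9 in wild-type saline and 160, 238, 241 and 346 in the supplemented mutant, with no overlap. In mutants with saline it read 193, 118 and 235, and in wild types with folinic acid 45.9, 54.0 and 47.2. The log2 difference was 2.50 ± 0.37 (SE, adjusted p = 0.0447), and 2 other probe sets of the gene gave 2.41 and -0.59. It lost the threshold under 14 of 19 alternatives (adjusted p from 0.0151 to 0.362), and leaving out supplemented mutant replicate 4 raised the adjusted p furthest among the single arrays, to 0.348.

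The only probe set that passed in the lower direction followed the injection. Probe set 1427174_at read 1627, 1365, 1675 and 1045 in wild-type saline, and 497, 523, 682 and 545 in the supplemented mutant. Mutants with saline read 1464, 1050 and 1634, while wild types with folinic acid read 729, 636 and 674. All 7 arrays of folinic acid groups lay below all 7 arrays of saline groups. It fell 2.52-fold, a log2 difference of -1.33 ± 0.18 (SE, adjusted p = 0.0155), and missed the threshold under 9 of 20 alternatives (adjusted p from 0.00482 to 0.197). These included leaving out wild-type saline replicate 1 (adjusted p = 0.126), 2 (0.0811) or 3 (0.0568), or supplemented mutant replicate 1 (0.0565), 2 (0.0698) or 4 (0.0873).

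Mid1, which encodes a microtubule-associated ubiquitin ligase and lies near Erdr1 on the X chromosome, had a large difference that was carried by 3 of the 4 mutant arrays. Its probe set 1438239_at read 284, 281, 645 and 333 in wild-type saline and 395, 9196, 3668 and 1711 in the supplemented mutant. Replicate 1 of the mutant lay within the wild-type range. The log2 difference was 2.59 ± 0.66 (adjusted p = 0.636), and without that array it was 3.42 with an adjusted p of 0.0347 (0.0347 to 0.964 over the alternatives, of which this was the only one past the threshold). Mutants with saline read 4075, 1351 and 3430. Other, dimmer probe sets of Mid1 gave 0.15 and 1.62 in the comparison.

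Next to the called probe sets stood genes that kept the groups apart without passing the adjusted test. The 12 genes with the smallest p in each direction, from probe sets with 1 symbol and a signal at or above the median, were chosen by the comparison itself. In 23 of these 24 genes the 4 mutant arrays lay wholly above or wholly below the 4 wild-type saline arrays, where 3.58% of such probe sets did so in either direction. Gria4, an AMPA-type glutamate receptor subunit, was the exception. Other probe sets were present for 17 of the genes, and 20 of those 38 probe sets had the sign of the named one.

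Among the lower genes, Pdgfd had the smallest p. It encodes a ligand of the platelet-derived growth factor receptor beta. Its signal was 839, 887, 359 and 1083 in wild-type saline and 113, 101, 224 and 91.4 in the supplemented mutant. The groups did not overlap, and the log2 difference was -2.57 ± 0.43 (SE, adjusted p = 0.137), or a 5.93-fold lower signal. It passed the threshold without wild-type saline replicate 3 (adjusted p = 0.0454), without replicate 3 of both groups (0.0257) and with array weights (0.0214), and adjusted p over all alternatives ran from 0.0214 to 0.599. Mutants with saline read 194, 536 and 790, of which 536 and 790 lay within the wild-type saline range. Wild types with folinic acid read 1167, 785 and 533. Other probe sets of Pdgfd gave -0.07 and -1.31.

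Casp4 encodes the caspase that senses cytosolic bacterial lipopolysaccharide in the mouse. It read 661, 696, 951 and 1125 in wild-type saline and 408, 146, 409 and 264 in the supplemented mutant. All mutant arrays were below all wild-type arrays, with a log2 difference of -1.56 ± 0.30 (adjusted p = 0.428). The saline mutants, at 277, 455 and 592, also lay below the saline wild types. In RefSeq's gene order, Pdgfd and Casp4 lie on the chromosome of Folr4, 41 and 43 genes with a probe set away from it, outside the 20 on each side that were described as its neighbours. That position was looked up after their values were seen.

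Cdh16, a cadherin of secretory and transporting epithelia, read 545, 184, 227 and 377 in wild-type saline and 94.0, 87.9, 60.9 and 53.9 in the supplemented mutant. The log2 difference was -2.08 ± 0.43 (adjusted p = 0.571). Mutants with saline read 234, 345 and 535 and wild types with folinic acid 404, 130 and 530, so the low values were those of the mutants given folinic acid.

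The remaining lower genes differed by smaller amounts. Ppp2r2a, a regulatory subunit of protein phosphatase PP2A, had a log2 difference of -0.98 ± 0.18. Hnrnpu, a nuclear RNA-binding scaffold protein, had one of -0.93 ± 0.18, with signals from 2028 to 3094 in wild-type saline and from 1165 to 1458 in the supplemented mutant. Alyref (messenger RNA export) was at -0.71, Pqbp1 (splicing) at -0.72, Carhsp1 (an RNA-binding cold shock protein) at -0.79 and Mdk (the heparin-binding growth factor midkine) at -0.71. Ube2s, the ubiquitin-conjugating enzyme that works with the anaphase-promoting complex, read 2417, 3066, 3356 and 2706 against 1897, 2076, 1840 and 1949, a log2 difference of -0.56 ± 0.13. Adjusted p-values were between 0.287 and 0.636 for these genes and for Gria4. For Ppp2r2a, 2 other probe sets gave 0.05 and 0.42, opposite in sign. The 4 other probe sets of Hnrnpu gave -0.13, -0.19, 0.22 and 0.10, a second one of Carhsp1 gave 0.14, and a dim second one of Ube2s gave 1.18.

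Among the higher genes, Slc34a2, a sodium-dependent phosphate transporter, read 194, 96.8, 295 and 166 in wild-type saline and 1366, 332, 494 and 442 in the supplemented mutant, a log2 difference of 1.69 ± 0.38. Car12, a membrane carbonic anhydrase, read 489, 169, 371 and 305 against 635, 731, 761 and 1568, a log2 difference of 1.47 ± 0.33. Both sets of groups were apart, each with 1 mutant array well above the others, replicate 1 for Slc34a2 and replicate 4 for Car12. In wild types given folinic acid Slc34a2 read 377, 254 and 266 and Car12 read 911, 501 and 448.

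Kcnma1, the pore-forming subunit of the large-conductance calcium-activated potassium channel of smooth muscle, read 344, 292, 171 and 346 against 678, 495, 597 and 626 in the supplemented mutant. Its log2 difference was 1.10 ± 0.25, and all 4 of its other probe sets had the same sign, from 0.35 to 1.58. Rdh10, the retinol dehydrogenase that makes retinaldehyde for retinoic acid synthesis, read 1188, 1253, 1004 and 1141 against 1492, 1949, 1936 and 2670, a log2 difference of 0.78 ± 0.18. Pik3cd, a catalytic subunit of phosphoinositide 3-kinase, was at 0.96 and Kmt5b, a histone H4 lysine methyltransferase, at 0.71. Zfp207, whose product helps kinetochores attach to microtubules, was at 0.58 here, although all 5 of its other probe sets were negative. Nrbp2, Zfp217, Manba and Med20 lay between 0.49 and 0.73. Other probe sets ran from -1.58 to 1.81 for Pik3cd and from -1.34 to 0.18 for Kmt5b, and a second one of Med20 gave -0.30. Adjusted p-values of the 11 higher genes other than Erdr1 were between 0.571 and 0.636.

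**Figure D2:**
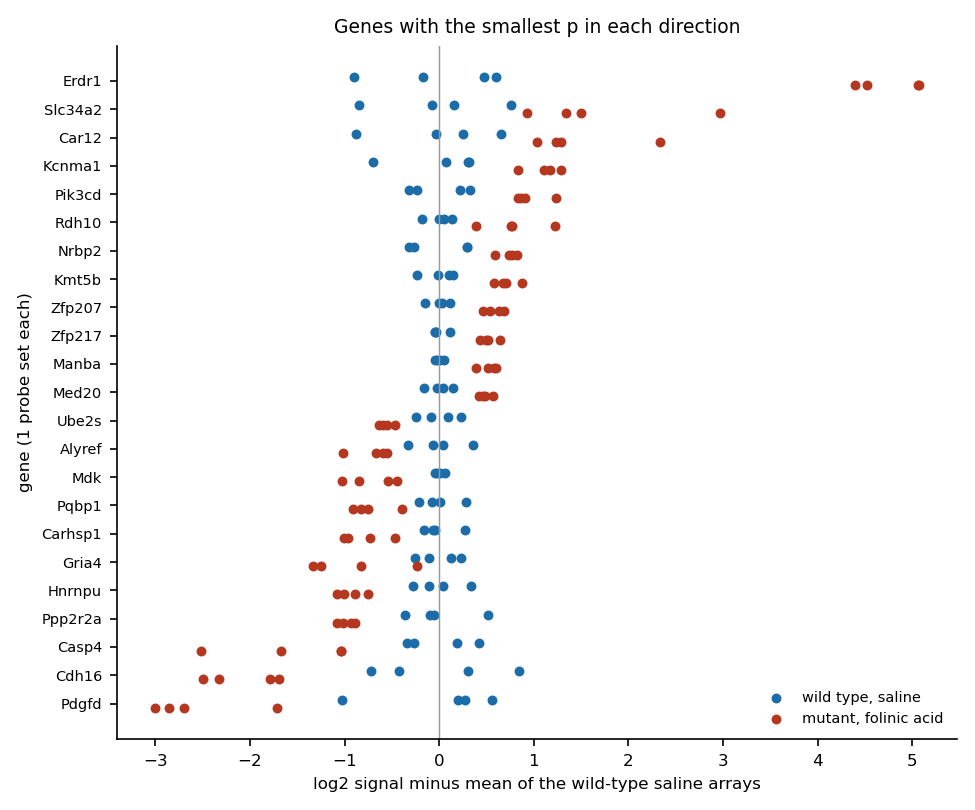
Log2 signal of 23 of these genes on the 4 wild-type saline arrays and the 4 supplemented mutant arrays, each minus the gene's mean over the wild-type saline arrays, 1 row per gene. The groups are apart in every row except that of Gria4, and Erdr1 and Pdgfd have the largest differences in each direction.

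Mitosis and spindle genes had the most one-sided pattern among the gene lists described. Of 35 genes of the list with a probe set, each taken through its brightest, 35 were lower in the supplemented mutant, where 53.6% of all genes were lower. The median log2 difference was -0.72, beside -0.03 over 18193 genes. Among all genes 46.4% were higher. None of the 35 passed the adjusted test, which 2 of all genes did (0.011%). At an unadjusted p under 0.05, 12 of 35 were lower (3.72% of all genes were), and in 7 of 35 the groups did not overlap in that direction (2.05% of all genes).

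Ube2c, the ubiquitin-conjugating enzyme of the anaphase-promoting complex, had the smallest p of the list. It read 729, 1065, 761 and 1341 in wild-type saline and 614, 246, 377 and 402 in the supplemented mutant. The groups were apart, and the log2 difference was -1.28 ± 0.36 (SE, adjusted p = 0.672). Mutants with saline read 1308, 478 and 1766 and wild types with folinic acid 738, 561 and 1120. Of these 6 values 3 lay within the wild-type saline range, 1 above it and 2 below it, and all were above the 3 lowest supplemented mutant arrays.

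Top2a, the topoisomerase that untangles sister chromatids, read 1215, 1716, 1459 and 1684 against 1182, 728, 966 and 838 in the supplemented mutant. Its groups were apart by a narrow gap, with a log2 difference of -0.72 ± 0.27. Aurka, a centrosomal kinase, read 296, 355, 308 and 368 against 258, 117, 190 and 160, a log2 difference of -0.92 ± 0.30. Prc1 (spindle midzone), Cenpe (kinetochore motor), Nuf2 (kinetochore complex) and Ttk (spindle checkpoint kinase) completed the 7 genes whose groups were apart, at -0.76, -1.20, -0.85 and -0.98.

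Ccna2, which encodes cyclin A2, read 569, 951, 928 and 961 against 633, 354, 412 and 467, so that 1 mutant array stood above the lowest wild-type array. Its log2 difference was -0.87 ± 0.26. Cdc20, the activator of the anaphase-promoting complex, was at -0.89 ± 0.32, and Cdk1, the mitotic kinase, at -0.82 ± 0.38. Mki67, which encodes the proliferation antigen Ki-67, was at -0.55 ± 0.32 with overlapping groups.

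The list did not move evenly over the mutant arrays. The median deviation of its members from the wild-type saline mean was -0.13 in supplemented mutant replicate 1, -1.34 in replicate 2, -0.52 in replicate 3 and -0.69 in replicate 4. In wild-type saline it ran from -0.31 to 0.22. Mutants with saline spanned more than that, at 0.11, -0.84 and 0.74, and wild types with folinic acid were at -0.20, -0.40 and 0.46. Without supplemented mutant replicate 2 the list median was -0.42, with 34 of 35 genes lower and 4 at an unadjusted p under 0.05. Without replicate 1 it was -0.93 with 23 such genes, and without wild-type saline replicate 4 it was -0.59 with 7. The median of the untreated mutant minus the supplemented wild type, groups that share no array with the comparison, was 0.01.

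**Figure D3:**
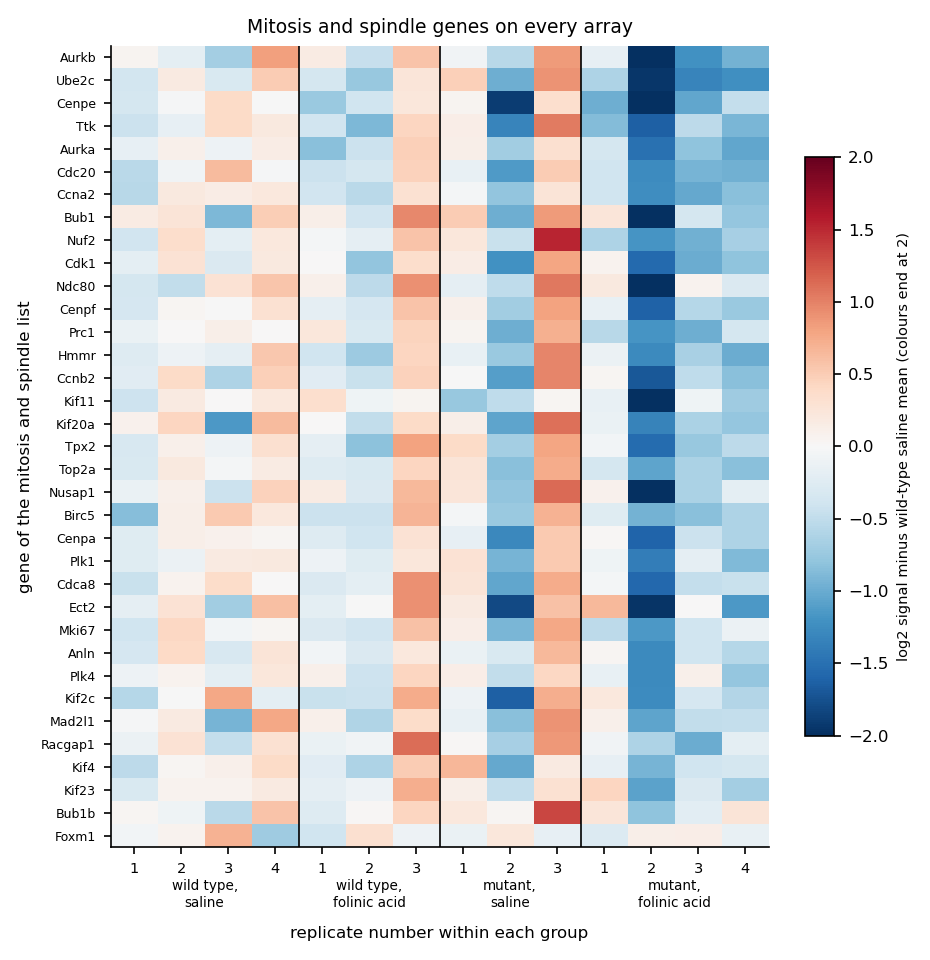
Log2 signal of the 35 mitosis and spindle genes on each of the 14 arrays, minus the gene's mean over the wild-type saline arrays (colours end at 2). Supplemented mutant replicate 2 is the lowest column, replicate 1 of that group lies near the wild-type saline columns, and saline mutant replicates 2 and 3 stand on opposite sides.

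Promoters of these genes carry known cell cycle elements, and windows of a few are shown because the members had differences of 1 sign. The 250 bases before the start site were searched on both strands for CCAAT, the box bound by the factor NF-Y. They were also searched on both strands for TTTGAA, a form of the cell cycle genes homology region. In the windows printed here no match overlaps another. RefSeq's promoter table (GRCm38.p6) held 32 windows for 30 of the 35 genes. CCAAT was found in 75.0% of them against 33.8% of all 32851 windows, TTTGAA in 34.4% against 16%, and both in 31.2% against 5.55%. Such a match describes the letters of the window and is no measurement of binding. The last 120 bases before the start site are printed for 4 members that hold both motifs, in lower case with both motifs, on either strand, in capitals. Ube2c lies at chr2:164769809-164769928 on the plus strand, Cdc20 at chr4:118437344-118437463 on the minus strand, Top2a at chr11:99024190-99024309 on the minus strand, and Prc1 (1 of its 2 windows) at chr7:80294356-80294475 on the plus strand.
Ube2c: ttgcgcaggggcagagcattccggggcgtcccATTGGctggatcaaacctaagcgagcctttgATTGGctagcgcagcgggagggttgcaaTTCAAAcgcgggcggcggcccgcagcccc
Cdc20: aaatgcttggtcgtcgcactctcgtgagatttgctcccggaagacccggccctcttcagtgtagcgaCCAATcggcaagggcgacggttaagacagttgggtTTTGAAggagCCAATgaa
Top2a: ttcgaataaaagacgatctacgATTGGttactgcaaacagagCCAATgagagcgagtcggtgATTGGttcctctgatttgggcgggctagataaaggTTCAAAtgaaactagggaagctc
Prc1: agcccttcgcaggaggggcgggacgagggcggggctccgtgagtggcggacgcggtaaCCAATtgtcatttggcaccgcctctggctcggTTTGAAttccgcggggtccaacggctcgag

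Genes of DNA replication leaned the same way by less. Of 34 S phase genes, 32 were lower and 2 higher, with a median of -0.33. At an unadjusted p under 0.05, 5 were lower and 1 higher (3.72% and 2.87% of all genes), and none passed the adjusted test. Without supplemented mutant replicate 1 there were 10 lower ones, and without wild-type saline replicate 4 there were 2. Tk1, the thymidine kinase that salvages thymidine for DNA synthesis, read 223, 283, 233 and 248 in wild-type saline and 133, 86.7, 89.9 and 103 in the supplemented mutant. Its groups were well apart, with a log2 difference of -1.28 ± 0.38 (adjusted p = 0.672). Mcm5, a subunit of the replicative helicase, read 1291, 1497, 1777 and 1736 against 1160, 1069, 1150 and 918, a log2 difference of -0.55 ± 0.21. Rfc4, a subunit of the clamp loader, was also apart at -0.54. Fen1, the flap endonuclease of Okazaki fragment processing, went the other way, at 1555, 1288, 1070 and 800 against 2321, 1899, 1940 and 1487, a log2 difference of 0.72 ± 0.20 with overlapping groups. Wild types with folinic acid read 2049, 2221 and 1893 for Fen1 on that probe set. A second probe set of Fen1, also at or above the median signal, gave -0.39, the direction of most of the list.

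The folate pathway itself showed small differences, mostly to the lower side. Of 27 genes of folate uptake and one-carbon enzymes, 22 were lower and 5 higher, with a median of -0.18. None passed the adjusted test, 3 were lower at an unadjusted p under 0.05 (3.72% of all genes) and 1 had groups apart to the lower side (2.05% of all genes). Among receptors and carriers, Folr1 (folate receptor alpha) read 118, 98.1, 322 and 143 in wild-type saline and 78.1, 89.5, 65.9 and 131 in the supplemented mutant. These ranges overlapped, with a log2 difference of -0.78 ± 0.38 (adjusted p = 0.810). Folr2 (folate receptor beta, a macrophage marker) was at -0.21 ± 0.38, a value that turned to 0.12 without supplemented mutant replicate 3.

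Slc46a1, the proton-coupled folate transporter, was at -0.53 ± 0.24 and Slc19a1, the reduced folate carrier, at -0.27 ± 0.15. Among the enzymes, Mtr (methionine synthase, which passes a methyl group from folate to homocysteine) read 279, 465, 560 and 400 against 202, 232, 337 and 263, a log2 difference of -0.70 ± 0.25 with overlapping groups. Gcsh, the carrier protein of the glycine cleavage system, read 4227, 4370, 3728 and 3317 against 2933, 3187, 3269 and 2754. It was the only member of the list whose groups were apart, with a log2 difference of -0.36 ± 0.14 (adjusted p = 0.767). The list median on single supplemented mutant arrays was -0.44, -0.12, 0.10 and -0.36, against -0.27 to 0.11 in wild-type saline. Those ranges overlapped. Without supplemented mutant replicate 4 the median of the differences was -0.07, without wild-type saline replicate 4 it was -0.09, without wild-type saline replicate 3 it was -0.32, without supplemented mutant replicate 3 it was -0.30 and without replicate 3 of both groups it was -0.42.

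Downstream of folate, 19 of 29 genes of the methionine cycle and of methylation were lower (median -0.08), with a median of 0.06 without supplemented mutant replicate 1 and of -0.25 without replicate 2. Dnmt1, the maintenance DNA methyltransferase, read 1169, 1274, 1166 and 1283 against 961, 1009, 1152 and 724, with groups apart and a log2 difference of -0.37 ± 0.15. Of 24 genes of serine synthesis and amino-acid stress, 10 were higher and 14 lower. Slc1a5, a glutamine transporter, was higher on all mutant arrays through its brightest probe set. That probe set read 1310, 898, 1051 and 1085 against 1758, 1348, 2302 and 1589, a log2 difference of 0.67 ± 0.18 (adjusted p = 0.656). A second probe set of Slc1a5, also at or above the median signal, gave 0.003.

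Hormone-regulated genes were mixed. Of 42 genes of progesterone response and implantation, 28 were lower and 14 higher (median -0.24), 4 were lower and 1 higher at an unadjusted p under 0.05 (3.72% and 2.87% of all genes), and none had groups apart (2.05% of all genes did to the lower side and 1.53% to the higher). Hoxa10, a homeobox gene needed for implantation, read 5250, 5089, 3312 and 4652 against 3665, 2964, 3606 and 2615, a log2 difference of -0.50 ± 0.18. Ihh, the epithelial hedgehog ligand induced by progesterone, read 506, 1256, 1131 and 453 against 115, 606, 723 and 179, a log2 difference of -1.29 ± 0.50. Its low mutant arrays were replicates 1 and 4. Cyp26a1, a retinoic acid-degrading enzyme, was at -1.05 ± 0.42. The list median was -0.14 without supplemented mutant replicate 1 and -0.13 without replicate 4, with 2 lower genes at that p in either case.

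Oestrogen response and secretory genes split the other way, with 16 of 29 higher and 13 lower (median 0.23). At an unadjusted p under 0.05, 6 were higher (2.87% of all genes) and 2 lower (3.72%). Cdkn1a, the cyclin-dependent kinase inhibitor p21, read 337, 365, 479 and 349 in wild-type saline and 668, 540, 574 and 578 in the supplemented mutant. All mutant arrays were above, with a log2 difference of 0.63 ± 0.18 (adjusted p = 0.670). Padi1, a peptidylarginine deiminase, read 631, 149, 509 and 362 against 629, 807, 998 and 4128, a log2 difference of 1.73 ± 0.53. Clca1, a secreted regulator of chloride channels, read 1117, 196, 341 and 1269 against 1970, 528, 1877 and 12890, a log2 difference of 2.01 ± 0.75. Replicate 4 held the highest value of both. The list median was 0.07 without supplemented mutant replicate 1, 0.13 without replicate 4 and 0.11 without wild-type saline replicate 2, with 3, 3 and 2 higher genes at that p.

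In the epithelium list, 19 of 34 genes were higher and 15 lower (median 0.06). Leaving out 1 array put the median between -0.16 (without supplemented mutant replicate 4) and 0.16 (without wild-type saline replicate 3), so it had no stable sign. Of 28 genes of ion and water transport, 18 were higher, with medians from 0.04 (without supplemented mutant replicate 1) to 0.23 (without wild-type saline replicate 4). Calb1, the calcium-binding protein calbindin, read 10250, 23120, 16230 and 13440 in wild-type saline and 2550, 19790, 8365 and 1336 in the supplemented mutant, a log2 difference of -1.63 ± 0.57. Its replicate 2 lay inside the wild-type range and replicates 1 and 4 far below it. Trpv6, an epithelial calcium channel, was highest on the same arrays, at 164, 148, 390 and 230 against 1070, 181, 266 and 970, a log2 difference of 1.13 ± 0.51. Lrp2, the endocytic receptor megalin, chosen here after its values were seen, read 959, 3885, 1334 and 1455 against 106, 4142, 631 and 67.3. The supplemented mutant group thus held arrays both within and outside the wild-type range for these genes. Aqp3, a water and glycerol channel, was at 1.29 ± 0.41 and Aldh1a3, a retinaldehyde dehydrogenase, at -1.74 ± 0.58.

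**Figure D4:**
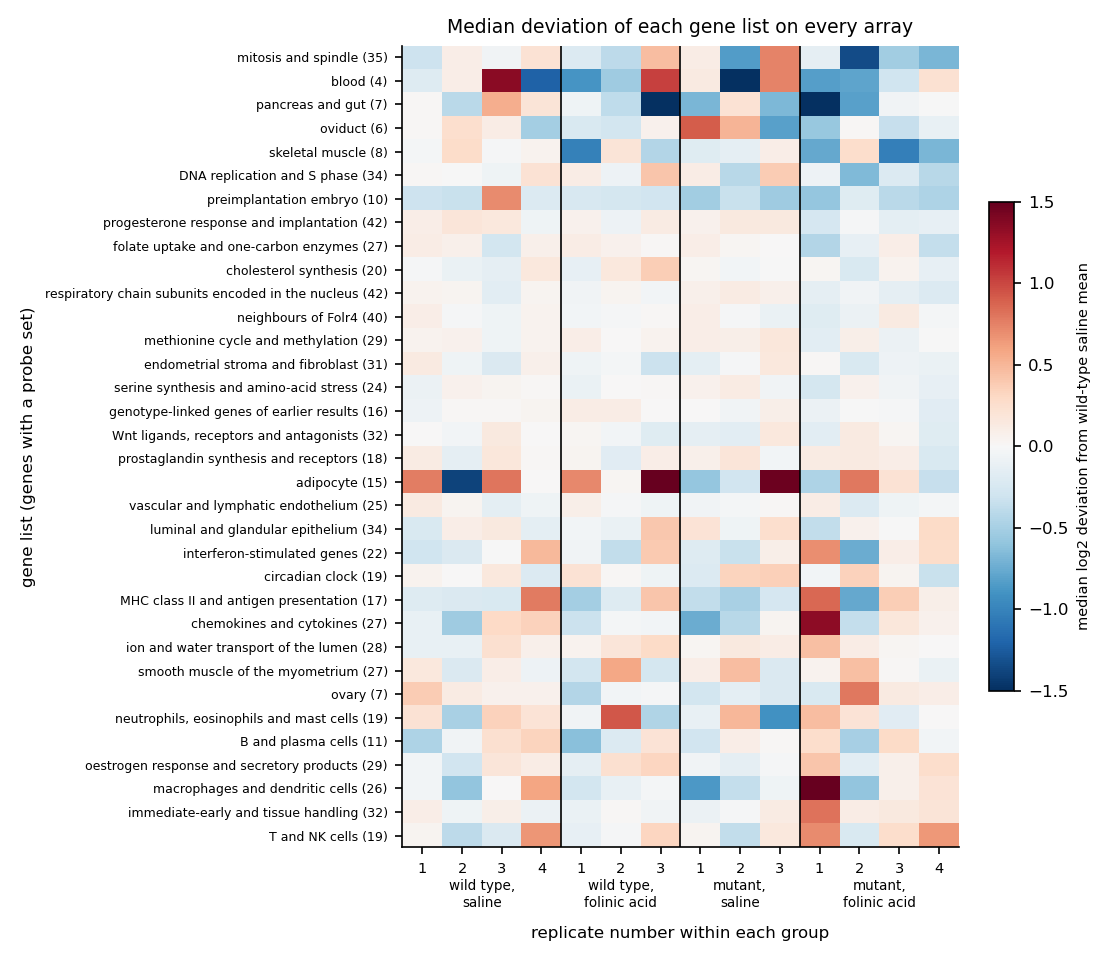
Median log2 deviation of each gene list from the wild-type saline mean on each of the 14 arrays (colours end at 1.5), with the number of genes with a probe set in brackets. Supplemented mutant replicate 1 is high for macrophage, chemokine and immediate-early genes, and supplemented mutant replicate 2 is low for mitosis genes.

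Lists of tissue compartments had medians near 0. Of 31 stromal genes, 22 were lower (median -0.07), with medians from -0.18 (without wild-type saline replicate 3) to -0.02 (without wild-type saline replicate 1). Vim, which encodes the mesenchymal filament vimentin, read 9659, 12160, 15010 and 11340 against 9323, 8492, 8654 and 9260, with groups apart and a log2 difference of -0.41 ± 0.14. Of 27 smooth muscle genes, 18 were higher (median 0.11), with medians from 0.01 (without supplemented mutant replicate 2) to 0.21 (without replicate 4). Of 25 endothelial genes, 16 were lower (median -0.02, and -0.16 without supplemented mutant replicate 1), and none of the 25 passed even an unadjusted p under 0.05.

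Macrophage and chemokine genes were highest on 1 array of the supplemented mutant. Of 26 macrophage and dendritic cell genes, 21 were higher (median 0.31), and the array medians of the supplemented mutant were 1.68, -0.59, 0.08 and 0.20, against -0.59 to 0.59 in wild-type saline. Without replicate 1 the median of the differences was -0.11, without replicate 2 it was 0.65 and without wild-type saline replicate 2 it was 0.11. The summed signal of the list ran from 28400 to 69560 in wild-type saline and from 26710 to 130200 in the supplemented mutant. Chemokine and cytokine genes had the same pattern: 18 of 27 were higher (median 0.09), replicate 1 was at 1.35, and without it the median was -0.16. Without wild-type saline replicate 2 it was -0.08. Cxcl2, a neutrophil chemoattractant, read 28.1, 16, 83.1 and 26.5 against 4415, 28.6, 173 and 80.2. Other immune lists were highest elsewhere: B and plasma cell genes on wild-type saline replicate 4 (0.33), granulocyte and mast cell genes on replicate 2 of wild type with folinic acid (0.93). The part of immune cell content in other results was not tested.

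Immediate-early genes, which cells switch on within minutes of a stimulus and also during tissue handling, were higher in 24 of 32 cases (median 0.37), with 4 at an unadjusted p under 0.05 (2.87% of all genes). Fos, a subunit of the AP-1 factor, read 696, 531, 1161 and 645 against 8605, 705, 963 and 1801, a log2 difference of 1.31 ± 0.54 without groups apart. Replicate 1 again stood out, with a list median of 0.81 against 0.11 to 0.19 on the other 3 mutant arrays. Without it the median of the differences was 0.20. Then 0 of 32 genes had an unadjusted p under 0.05 in limma, beside 0 at an adjusted p under 0.05. The list medians of the wild-type saline arrays ran from -0.09 to 0.10, below those of all 4 supplemented mutant arrays by a narrow gap. The summed signal ran from 46470 to 50830 in wild-type saline and from 52900 to 74430 in the supplemented mutant, without overlap. Mutants with saline, at 47600 to 53740, overlapped both. After quantile normalization the sums of the 2 groups compared also did not overlap.

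Subunits of the respiratory chain encoded in the nucleus were lower in 33 of 42 cases by a small amount (median -0.10). After quantile normalization 31 were lower and the median was -0.05. On the deposited scale, the summed signal of the list ran from 331100 to 349400 in wild-type saline and from 282100 to 321700 in the supplemented mutant, without overlap. It ran from 349200 to 376100 in mutants with saline and from 300700 to 322000 in wild types with folinic acid, so that all 7 arrays of the folinic acid groups lay below all 7 of the saline groups. This separation depended on the scale: after quantile normalization the sum ran from 320200 to 337400 in wild-type saline, 307600 to 323200 in the supplemented mutant and 314000 to 342700 in wild types with folinic acid, and these ranges overlapped. Cox5b, a subunit of cytochrome c oxidase, read 14280, 15440, 15670 and 14450 against 12360, 13400, 11940 and 11990, with a log2 difference of -0.27 ± 0.12 (adjusted p = 0.807).

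Genes that ranked first between the genotypes under saline in the same fit, 5 per direction, were followed into the supplemented mutant. That selection used the wild-type saline arrays, which both comparisons share, so the values are given side by side only. It also favoured extreme values of the saline mutants, so smaller differences in the supplemented mutant can follow from the selection alone. Rnf144b, an E3 ubiquitin ligase, was at -1.44 in the mutant with saline and at -0.29 in the mutant with folinic acid, each against wild-type saline. Wee1, the kinase that holds back entry into mitosis, was at 1.04 and -0.35, and Etnk1 (ethanolamine kinase) at 0.98 and -0.31. For the translation factor Eif2a, 1 probe set was at -0.79 and -0.14. A probe set of Samhd1 (a deoxynucleotide triphosphohydrolase) was at -1.71 and -0.41, while the gene's 4 other probe sets were between 0.36 and 0.54 in the supplemented mutant.

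The other genes of that selection had the same sign with both injections, as did Rnf144b, Eif2a and Samhd1 through the probe sets given. Erdr1 was at 4.98 in the mutant with saline and 4.76 in the mutant with folinic acid. Mid1, through its bright probe set described above, was at 2.88 and 2.59. Nnt, the mitochondrial transhydrogenase, was at -0.71 and -0.51, and Wdfy1, an endosomal adaptor, at -1.5 and -1.0. Pisd-ps3, a pseudogene, was at 1.01 and 0.39. A second probe set of Wdfy1 kept the supplemented mutant wholly below wild-type saline, with 1138, 967, 1020 and 1145 against 672, 254, 836 and 561.

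The 20 genes on each side of Folr4 were also described, since a mutation can keep flanking DNA of the strain in which it was made. Of these 40 genes with a probe set, 15 were higher and 25 lower (median -0.10, and -0.02 without supplemented mutant replicate 1), 2 were higher at an unadjusted p under 0.05 (2.87% of all genes) and none passed the adjusted test. Groups were apart for 1 to the higher side (1.53% of all genes) and for 2 to the lower side (2.05%). Smco4, a small membrane protein gene, read 706, 619, 537 and 652 against 908, 840, 804 and 745, with groups apart and a log2 difference of 0.39 ± 0.15. Pgr, the progesterone receptor gene at the far end of these neighbours, was at -0.23 ± 0.24.

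A genotype difference that holds with either injection would appear with the same sign in the comparison and in a contrast of the other arrays. That contrast, mutant with saline against wild type with folinic acid, shares no array with the comparison. An injection difference shared by both genotypes would enter the 2 contrasts with opposite signs. Their correlation and share of same signs therefore mix genotype and injection, and the part of each was not tested. The actin ratio was 3.00, 3.01 and 2.11 in mutants with saline and 1.70, 1.68 and 2.42 in wild types with folinic acid. Its part was not tested either. Over the 11269 genes at or above the median signal, the 2 sets of log2 differences had a Pearson r of -0.343 and a Spearman rho of -0.355, and 37.4% of genes had the same sign in both. These are descriptions across genes, which are not independent replicates. The value of r lay between -0.442 and -0.198 when any 1 of the 14 arrays was left out, nearest to 0 without supplemented mutant replicate 1, and was -0.111 over all 18193 genes. Of the 24 genes named above, 2 of 12 higher and 3 of 12 lower ones had the same sign in both contrasts: Erdr1 (4.45) and Rdh10 (0.02), and Pdgfd (-0.86), Casp4 (-0.79) and Ube2s (-0.08).

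**Figure D5:**
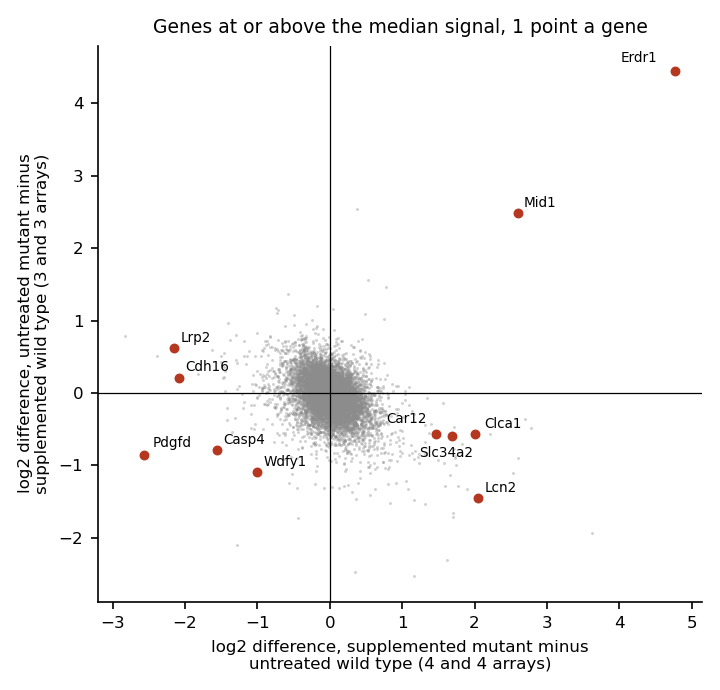
Log2 differences of 11269 genes, 1 point a gene, in the supplemented mutant minus untreated wild type (horizontal axis, 4 and 4 arrays) and in the untreated mutant minus supplemented wild type (vertical axis, 3 and 3 arrays). The cloud runs from upper left to lower right, and Erdr1 and Mid1 stand far out at upper right.

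By overall distance, the arrays of the supplemented mutant lay about as far from those of wild-type saline as arrays of 1 group lay from each other. The root mean square log2 gap between 2 arrays averaged 1.21 within wild-type saline (6 pairs), 1.19 within the supplemented mutant (6 pairs) and 1.21 between them (16 pairs, from 1.12 to 1.38). For mutants with saline against wild-type saline it averaged 1.26 (12 pairs), and within mutants with saline 1.30 (3 pairs). Over probe sets at or above the median signal, where near-background noise counts less, the order differed. There the gap averaged 0.516 within wild-type saline, 0.599 within the supplemented mutant and 0.564 between them, and 0.496 between mutants with saline and wild-type saline. Within mutants with saline it averaged 0.480 there. At that signal level the supplemented mutant had the larger mean gap to wild-type saline of the mutant groups, and its own arrays were the most spread. A mean gap between groups also grows with the spread within them. These means therefore do not tell which mutant group was nearer to wild-type saline.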

How the data were processed

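RNA from whole uterus had been labelled by the one-cycle biotin assay, per the labels, and hybridised to Affymetrix arrays. The values deposited by the authors are linear intensity signals made with MAS5 (per the submitters' processing notes, no version). All 14 arrays had a 2% trimmed mean of 500.002 to 500.003, and their scale was left as it was. Only these signals were analysed; detection calls and scanned images were left aside. Of 45101 probe sets, 64 controls were left out, and the other 45037 were tested. Of these, 34945 had 1 gene symbol, 932 several and 9160 none, and 34741 matched RefSeq by gene ID. Signals under 1 were raised to 1 (0.505% of values) before log2. Group means of all 4 groups were fitted to the 14 arrays with limma 3.58.1 (R 4.3.3; lmFit and eBayes with a trend), and p-values were adjusted by Benjamini-Hochberg over all 45037. The code was checked on simulated data. The number of arrays limits the precision.

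Named were, among probe sets with 1 symbol and a mean log2 signal at or above the median, 12 genes per direction (those past the threshold by size, then by smallest p, each through its probe set of smallest p), and 5 per direction of the saline comparison. Without that signal filter, 3 members per list by p, the folate receptors, Erdr1 and Mid1 were named too. Of the 12 lower genes, 1 is counted but not reported by name here. Other genes named with values were chosen after their values were seen. List members were taken through their brightest probe set. The lists, and the choice of this comparison, were made with earlier results of these data known. Alternatives were quantile normalization, an offset of 16, 2 filters, 1 probe set per gene, 3 variance or weight models, fewer or averaged arrays, a replicate block, the actin ratio as covariate and leaving out each array. Leaving out replicate 3 of both groups was added after the data were seen, as were the alternatives of the comparison without shared arrays and of the summed list signals.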

Additional observations from a re-analysis of the deposited data

Results flagged for a closer look

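In each group of 4 arrays, the gap from the highest and from the lowest value to the nearest other array was divided by the group's range. This ratio was compared with Dixon's 95% critical value. For genes it was taken on log2 signals, while the signals printed here are linear. Of 256 groups checked, 16 exceeded it, and chance alone gives about 1 in 20. In wild-type saline, single arrays stood apart for Zfp217 (replicate 3, 757.7), Bhlhe40 (replicate 3, 1290), Aldh7a1 (replicate 2, 4024) and Ccna2 (replicate 1 lowest, 569.2). In the supplemented mutant, replicate 2 stood apart for Wee1 (575.6), Eif2a (lowest, 622.0) and Fam76b (lowest, 1141), and replicate 1 for Cd14 (5550).

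Among list medians, given as log2 deviations from the wild-type saline mean, wild-type saline replicate 3 was lowest for folate genes (-0.27), methionine cycle genes (-0.0673) and respiratory chain subunits (-0.16), and highest for embryo markers (0.71). That array also had the highest actin ratio of its group, 3.64, and the part of RNA integrity in these values was not tested. Wild-type saline replicate 4 was highest for MHC class II genes (0.78) and replicate 2 lowest for granulocyte and mast cell genes (-0.49). In the supplemented mutant, replicate 1 was highest for immediate-early genes (0.81) and replicate 4 lowest for prostaglandin genes (-0.22).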

How the results depend on the processing

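The 4 probe sets called became 2 under the filter at the median signal, the filter at the upper 35%, variances without a trend, a fit of the 8 arrays alone, and arrays with 1 title number averaged, 1 with 1 probe set per gene, and 7 without replicate 3 of both groups. Leaving out 1 array gave 2 to 4. Both filters left 1439200_x_at and the dim probe set of Lrmda untested. The called probe sets that the filters kept, Erdr1 and 1427174_at, stayed past the threshold. With 1 probe set per gene, 1439200_x_at and 1427174_at were not tested. The 3 called higher became 1 under both filters and with 1 probe set per gene, and were 2 to 3 with 1 array left out. Counts at an unadjusted p under 0.05 moved from 2786 in all (1059 higher, 1727 lower) to 1600 (670 and 930) with the median filter, 1182 (504 and 678) with the upper 35% and 1175 (507 and 668) with 1 probe set per gene, where fewer probe sets were tested, and to 2272 to 4114 (849 to 1728 and 1419 to 2386) with 1 array left out, most without supplemented mutant replicate 2. Quantile normalization moved the share of higher probe sets among them from 38.0% to 47.4%, and list medians of stroma to -0.03, the methionine cycle to -0.03, ion transport to 0.17, smooth muscle to 0.18, MHC class II to 0.21, the clock to 0.13, cholesterol to -0.06 and prostaglandin genes to 0.01. Folr2 lay between -0.53 and 0.12 with 1 array left out, reversing to 0.12 without supplemented mutant replicate 3, and was 0.17 without replicate 3 of both groups. The correlation without shared arrays was -0.11 over all genes and -0.44 to -0.20 with 1 array left out. The causes were not tested. Of the single genes, 1892 values kept direction and side of the threshold, 23 lost it and 4 gained it.

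The replicate numbers of the labels did not pair the arrays: deviations of same-numbered arrays had correlations of 0.03, 0.06, -0.06 and -0.02. With the replicate block, 3 probe sets were called and 2650 had an unadjusted p under 0.05.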

Other observations

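Genes of the circadian clock (12 of 19 higher, median 0.07), cholesterol synthesis (15 of 20 lower, median -0.12), prostaglandin synthesis and receptors (10 of 18 lower, median -0.04) and Wnt signalling (17 of 32 lower, median -0.04) held no gene that passed the adjusted test. With 1 array left out, the clock median lay between -0.07 and 0.11, that of prostaglandin genes between -0.13 and 0.08, that of cholesterol genes between -0.17 and -0.04 and that of Wnt genes between -0.09 and -0.01. The largest differences by p in these lists were those of Bhlhe40, a clock repressor (0.53 ± 0.19), Hpgd, which degrades prostaglandins (-0.68 ± 0.28), and Lef1, a transcription factor of Wnt signalling (-0.93 ± 0.35). Lef1 read 654, 946, 300 and 595 in wild-type saline and 184, 357, 511 and 249 in the supplemented mutant, and mutant replicates 2 and 3 lay above wild-type replicate 3.

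Markers of neighbouring tissues varied between single arrays in both groups. The summed signal of 15 adipocyte genes ran from 5251 to 38710 in wild-type saline and from 11000 to 27220 in the supplemented mutant. Ovgp1, a secreted glycoprotein of the oviduct, read 7580, 13770, 6990 and 4596 against 4371, 8085, 1329 and 2698, a log2 difference of -1.18 ± 0.53. It was the only 1 of 4 oviduct markers at or above the median signal. Foxj1, Dnah5 and Fam183b read between 2.12 and 82.7 on the 8 arrays. In the oviduct list, 5 of 6 genes were lower and 1 was higher, at 2.80 with groups apart. Alas2, the erythroid enzyme of haem synthesis, read 637, 458, 1058 and 416 against 246, 430, 253 and 322, a log2 difference of -0.98 ± 0.28. The other blood marker with a probe set, Hba-a1, was below the median signal. It ran from 9.06 to 77.3 in wild-type saline and from 8.77 to 77.8 in the supplemented mutant. T and NK cell genes were higher in 16 of 19 cases (median 0.40), with a median of 0.22 without supplemented mutant replicate 1 and of 0.34 among the 9 members at or above the median signal (8 higher). Only Icos, which lies below the median signal, had an unadjusted p under 0.05. MHC class II genes were higher in 14 of 17 (median 0.08), and without supplemented mutant replicate 1 their median was -0.19. The part of tissue composition in the comparison was not tested.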
